A study of Mus musculus with 6 samples.

Results

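The myosin light chain genes of striated muscle were examined in chromatin accessibility profiles of mouse quadriceps femoris, the extensor muscle of the thigh. Peaks were taken as members when the deposited annotation assigned them to Myl1, Mylpf, Myl2, Myl3, Myl4 or Myl6b, which gave 24 of the 75134 peaks and 6 of the 16020 gene names. Of these peaks 8 were assigned to Myl1, 2 to Mylpf, 3 to Myl2, 3 to Myl3, 6 to Myl4 and 2 to Myl6b, and all 24 passed the filter on low counts. The assay was ATAC-seq on nuclei of frozen muscle: the Tn5 transposase cuts open DNA and inserts adapters there. There were 3 libraries from mice of genotype Prr14-KO (replicates 4, 5 and 7, named KO4, KO5 and KO7) and 3 from mice of genotype Prr14-WT (replicates 3, 4 and 8, named WT3, WT4 and WT8). PRR14 is a protein of the nuclear lamina, and the series title places it in mechanotransduction and in myofibre identity through MEF2C. The sources used here give neither the allele, age, sex or strain nor how many mice a library holds. The p-values therefore reflect only how far these libraries spread, which may be technical.

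Each myosin motor carries on its neck a pair of light chains, one essential (alkali) and one regulatory (phosphorylatable), which stiffen the lever arm and tune its speed. Fast fibres use the products of Myl1 (essential) and Mylpf (regulatory), whereas slow fibres and the heart ventricle use those of Myl3 (essential) and Myl2 (regulatory). Myl4 encodes the essential chain of the atrium and of embryonic muscle, and Myl6b an essential chain of slow and non-muscle myosin. Myl1 is transcribed from separate starts, an upstream one giving the longer chain MLC1F and an inner one the shorter chain MLC3F, and in rat an enhancer lies beyond the last exon. The quadriceps of the mouse is mostly made of fast fibres.

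The stretches upstream of the RefSeq starts (GRCm38.p6) are shown because the peaks over them set the genes apart. For Myl1 the 250 bases before a listed start (chr1:66945057-66945306, minus strand) lay wholly inside a peak that was lower in KO; the RefSeq span of the gene extends further upstream, to 66947932, which no listed peak covers. Those before a listed start of Mylpf (chr7:127211358-127211607, plus strand) lay inside a broad peak that was not called. The RefSeq span of Mylpf begins further upstream, at 127208848, under the same peak. Myl2 has in RefSeq an outer start and a second one downstream of it (chr5:122092474-122092723 and chr5:122092939-122093188, plus strand), and both start sites lay inside the peak of this gene that was higher in KO. No listed peak covered the RefSeq start of Myl3 (chr9:110763428-110763677, plus strand), which is shown for contrast. Capitals mark CAGCTG (an E-box that myogenic factors bind), TATAAA (found close to many start sites), CATTCC (a TEAD-type motif) and the CArG box, each searched on both strands, so that a match on the other strand appears as its reverse complement.
Myl1: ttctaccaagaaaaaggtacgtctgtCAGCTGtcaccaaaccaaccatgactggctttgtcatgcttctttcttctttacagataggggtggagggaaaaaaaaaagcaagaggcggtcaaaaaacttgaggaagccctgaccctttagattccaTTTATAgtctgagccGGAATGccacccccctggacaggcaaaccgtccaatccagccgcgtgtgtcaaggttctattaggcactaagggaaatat
Mylpf: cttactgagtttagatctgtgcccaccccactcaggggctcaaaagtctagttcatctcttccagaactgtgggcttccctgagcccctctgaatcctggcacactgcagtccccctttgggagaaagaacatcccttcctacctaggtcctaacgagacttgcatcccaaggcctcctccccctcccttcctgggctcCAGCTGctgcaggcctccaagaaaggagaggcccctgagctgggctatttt
Myl2 outer start: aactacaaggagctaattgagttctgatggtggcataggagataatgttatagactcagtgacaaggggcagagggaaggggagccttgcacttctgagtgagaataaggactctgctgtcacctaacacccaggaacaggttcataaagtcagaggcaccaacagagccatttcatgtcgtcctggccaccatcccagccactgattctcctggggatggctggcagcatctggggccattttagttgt
Myl2 second start: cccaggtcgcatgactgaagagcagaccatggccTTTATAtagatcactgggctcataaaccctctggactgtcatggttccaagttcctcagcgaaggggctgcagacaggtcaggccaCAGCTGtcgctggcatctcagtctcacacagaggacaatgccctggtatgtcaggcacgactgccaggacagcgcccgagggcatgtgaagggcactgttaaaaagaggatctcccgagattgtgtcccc
Myl3: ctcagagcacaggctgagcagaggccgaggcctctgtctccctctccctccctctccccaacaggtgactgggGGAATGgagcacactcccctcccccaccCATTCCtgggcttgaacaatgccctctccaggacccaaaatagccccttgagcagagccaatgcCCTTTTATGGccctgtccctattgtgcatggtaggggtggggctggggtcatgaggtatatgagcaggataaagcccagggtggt

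CAGCTG was present before the printed starts of Myl1 (224 bases upstream) and Mylpf (51 bases) and before the second start of Myl2 (130 bases). It is held by 13% of 32851 RefSeq promoter windows of the same 250 bases. TATAAA stood before Myl1 (95 bases) and before the second start of Myl2 (216 bases), against a share of 12.4% of the windows. CATTCC occurred in 1 place before Myl1 and in 2 places before Myl3 (12.6% of windows), and a CArG box occurred before Myl3 alone among the 7 windows of the 6 genes (1.47% of windows). The looser E-box CANNTG, which includes CAGCTG, was found in the windows of every member except Myl4, and 66.2% of all windows hold it. The MEF2 motif was found in none of the 7 windows and in 2.92% of all. These are matches of letters in a short window, not sites of binding.

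Counts were tested peak by peak over all 73896 tested peaks, and a peak was called at an adjusted p below 0.05 in the quasi-likelihood test of edgeR. Levels are counts per 1000000 (CPM) after TMM scaling of the libraries. Gene sums were scaled in a fit of their own, so they do not equal the added CPM of the single peaks. Total counts in peaks ran from 9346968 to 12061822 in the KO libraries and from 7608514 to 11575061 in the WT libraries. Skeletal muscle, the labelled tissue, was checked by its markers: all 8 skeletal fibre markers (such as Ckm, Acta1 and Ryr1) had a promoter peak, with summed promoter signal of 604 to 653 CPM in KO and 506 to 792 CPM in WT. Of 6 cardiac markers 3 had one, summing to 10.1 to 16.0 CPM in KO and 8.93 to 13.3 CPM in WT, and Nppa, Nppb and Myl7 had none. Smooth muscle (3 of 4 markers) summed to 18.7 to 20.9 CPM in KO and 18.6 to 23.1 CPM in WT. The endothelial list (4 of 5) summed to 40.4 to 63.5 CPM in KO and 33.8 to 52.1 CPM in WT. Macrophage and blood markers (1 of 4; none for Ptprc, Cd68 and Adgre1) stood at 2.63 to 5.33 CPM in KO and 3.86 to 4.84 CPM in WT. The promoter sums of fibro-adipogenic (4 of 4), adipocyte (2 of 3), satellite cell (3 of 3) and hepatocyte (1 of 3) markers overlapped between KO and WT as well. The single marker promoter that passed was that of Cldn5, an endothelial gene, which was higher in KO. Counted over all their peaks, marker lists did move: 25 of 163 skeletal fibre marker peaks fell and 2 rose (median log2 fold change -0.41), and 4 of 15 satellite cell marker peaks rose and 0 fell (median 0.53). Beside these stand 4.23% of all tested peaks that fell and 2.77% that rose. The part of cell makeup in the results below was not tested. WT4 had the highest fibre marker sum and WT8 the lowest of the 6 libraries. In a whole tissue, fewer nuclei of a fibre type and less open chromatin per nucleus cannot be told apart.

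Light chain accessibility fell in KO at the fast gene Myl1, and rose at 1 peak each of the slow or cardiac gene Myl2 and the embryonic gene Myl4. Of the 24 member peaks, 8 fell, 2 rose and 14 did not pass, beside 4.23% of all tested peaks that fell and 2.77% that rose. The median log2 fold change of KO over WT was -0.12 over the members and -0.01 over all tested peaks. Of the 8 that fell, 7 belonged to Myl1 and 1 to Mylpf. Leaving out WT4, KO4 or KO5 gave 5 fallen member peaks each, and leaving out KO7 gave 4. Raised member peaks numbered 0 when KO4 was left out and 1 when KO5 or WT3 was. With the library factors of the authors in place of TMM, 1 member peak fell and 1 rose. Over all peaks 752 then fell and 1620 rose, against 3128 that fell and 2049 that rose with TMM. Those factors shift the median of all peaks to 0.19. They ran only from 0.977 (KO7) to 1.04 (KO5), and WT8, with the lowest total of 7608514 counts in peaks, had 0.984. This setting therefore hardly adjusts for the differences in counts between the libraries.

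**Figure D1:**
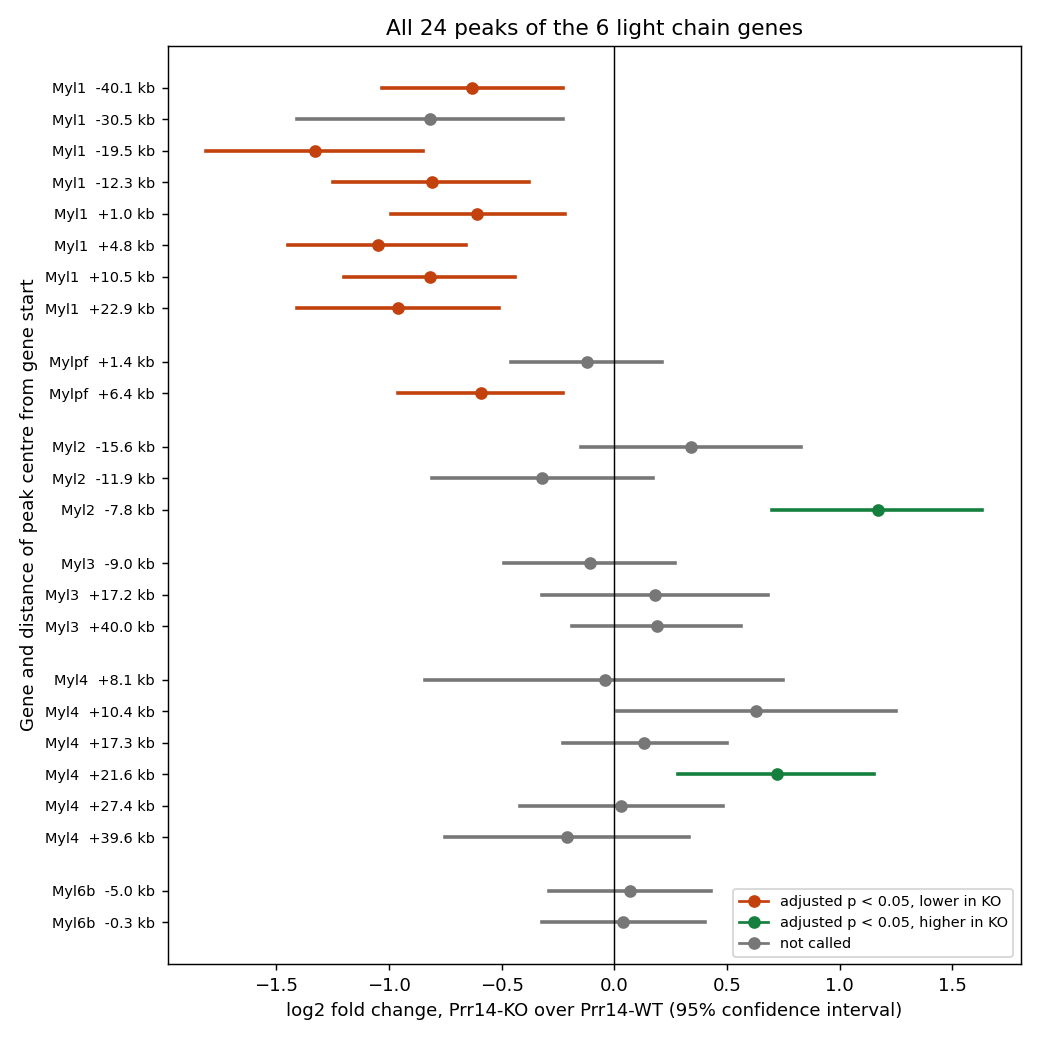
Log2 fold change of KO over WT (horizontal axis) for each of the 24 member peaks, ordered within a gene by the distance of the peak centre from the gene start of the deposited annotation (vertical axis); bars are 95% confidence intervals from the edgeR fit (n = 3 each). All 8 Myl1 peaks lie left of 0, while Myl2 and Myl4 have 1 called peak each on the right.

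Summed over its 8 peaks, Myl1 had 94.3, 83.4 and 83.9 CPM in KO4, KO5 and KO7, against 144, 195 and 129 CPM in WT3, WT4 and WT8. Each KO library was below each WT library, and the KO values lay close together whereas WT4 stood highest. The mean was 87.2 ± 6.14 CPM in KO and 156 ± 34.7 CPM in WT (SD, n = 3 each). The log2 fold change was -0.84 (SE 0.13, 95% confidence interval -1.13 to -0.56, edgeR adjusted p = 7.84e-04 over 15916 gene names). By this test of gene sums, 2.99% of all gene names fell and 1.79% rose. The Myl1 sum stayed called when each library in turn was left out, and was not called with the factors of the authors (log2 fold change -0.66, adjusted p = 0.413), where the median gene stood at 0.23.

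The peaks at the inner start of Myl1 and at the upstream start printed above had lower signal in KO. Of these calls, that at the inner start alone held when each library was left out. No listed peak covered the outer end of the RefSeq span, as given above. The peak over the upstream start (66943255 to 66945605 on chromosome 1, which holds the printed sequence) had 18.4, 18.8 and 19.4 CPM in KO, against 25.7, 36.9 and 23.3 CPM in WT. Each KO library was below each WT library. Its log2 fold change was -0.61 (SE 0.19, adjusted p = 0.0309). The call did not hold when WT4 was left out (-0.35, adjusted p = 0.327), nor for KO4 (adjusted p = 0.131), KO5 (0.218) or KO7 (0.0801), nor with DESeq2 (0.0611). The peak at the inner start (66933813 to 66935881) had 17.5, 17 and 16.8 CPM in KO and 31.4, 37.0 and 22.0 CPM in WT. Here the log2 fold change was -0.82 (SE 0.20, adjusted p = 0.00113), and the call was kept when each library was left out. For promoter peaks in general (1 per gene, 12868 tested), 0.692% fell and 0.894% rose.

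Between these starts, the intronic peak (66939851 to 66941323) had 12.9, 11.9 and 14.6 CPM in KO and 24.4, 35.4 and 21.6 CPM in WT. The groups did not overlap, and the log2 fold change came to -1.05 (SE 0.20, adjusted p = 1.86e-05). Just beyond the last exon, where the enhancer of the rat gene lies, a peak 22.9 kb downstream of the start (66921420 to 66923543) had 9.10, 6.82 and 6.04 CPM in KO and 16.5, 15.6 and 10.4 CPM in WT. This downstream peak fell, its log2 fold change being -0.96 (SE 0.23, adjusted p = 0.00128), with no overlap of the groups. Whether it matches the rat enhancer was not tested.

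Upstream of Myl1, called peaks lay as far as 40.1 kb from the start, though the call at 40.1 kb was the least stable of the gene. The strongest change of the gene was 19.5 kb upstream (66964493 to 66965319), where KO libraries had 7.74, 3.21 and 5.03 CPM and WT libraries 13.9, 14.4 and 11.3 CPM. The log2 fold change there was -1.33 (SE 0.24, adjusted p = 6.48e-06), it was called under every alternative tried, and it is the Myl1 peak that passed in the authors' deposited table (log2 fold change -1.17, adjusted p = 0.0255). Of its 66394 peaks with an adjusted p, 0.872% fell and 2.44% rose. The peak 12.3 kb upstream had 8.89, 9.62 and 7.60 CPM in KO and 10.7, 21.3 and 13.7 CPM in WT. There the log2 fold change was -0.81 (SE 0.22, adjusted p = 0.00713), which did not pass when WT4 (-0.45, adjusted p = 0.302) or KO7 (0.0754) was left out, nor with DESeq2 (0.0516). At 40.1 kb the values were 14.2, 12.7 and 13.8 CPM in KO and 21.3, 27.2 and 14.2 CPM in WT, so that KO4 and WT8 touched. That peak gave -0.63 (SE 0.21, adjusted p = 0.0340), and of the 6 fits that each left out a library it was called in 1 alone, the fit with WT8 left out (adjusted p between 0.00614 and 0.362). Nor did it pass with DESeq2 (adjusted p = 0.109) or with total counts (0.0568). The remaining peak, at 30.5 kb, had a log2 fold change of -0.82 (95% confidence interval -1.41 to -0.23) that did not pass (adjusted p = 0.0791).

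**Figure D2:**
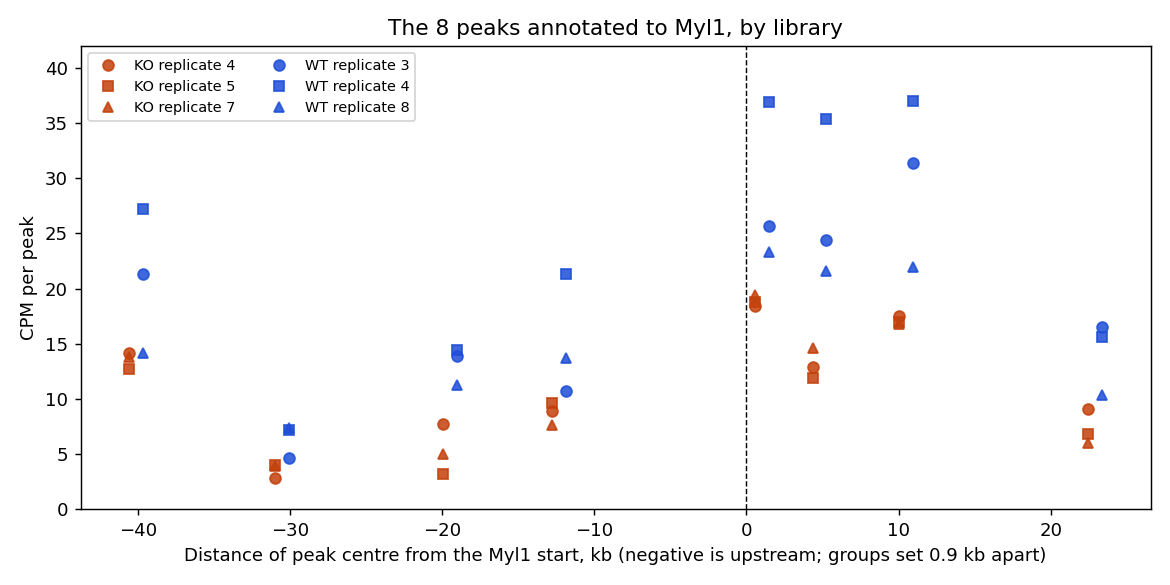
CPM of each library (vertical axis) at the 8 Myl1 peaks, by the distance of the peak centre from the Myl1 start of the deposited annotation in kb (horizontal axis; dashed line, the start). KO points (orange) lie under the WT points (blue) at 7 of the 8 peaks, and meet at -40.1 kb.

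Peaks of the neighbouring genes on either side did not pass. On the downstream side the nearest listed peak, assigned to Acadl (66895084 to 66897975), gave -0.19 (SE 0.20, adjusted p = 0.728), and on the upstream side the nearest, assigned to Lancl1 (66992284 to 66993226), gave -0.32 (SE 0.30, adjusted p = 0.681). The number of Myl1 peaks with a negative fold change was 8 of 8 under every alternative, and the number called was 7 with TMM, 6 with total counts, 4 with DESeq2 and 1 with the factors of the authors. All KO libraries were below all WT libraries at 7 of the 8 peaks, a pattern shown by 11.2% of all tested peaks (and the opposite one by 9.17%).

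Set against the promoter signal of the fibre markers in the same library, the Myl1 sum was lower in KO. The log2 ratio of the Myl1 sum to the summed promoter signal of the 8 fibre markers was -2.69, -2.97 and -2.85 in KO and -2.09, -2.02 and -1.97 in WT. The gene sums and the marker promoter signal were scaled in separate TMM fits, so libraries with close values cannot be ranked by this ratio. It was chosen after the values were seen and given no test. The ratio sets all Myl1 peaks against promoter peaks alone, and over all their peaks the fibre markers were lower too (25 of 163 called lower, as given above). For the other fast gene, Mylpf, the same ratio was -2.22, -2.14 and -2.21 in KO and -1.92, -2.14 and -1.82 in WT. KO5 and WT4 were too close to rank, so the groups were not apart.

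Mylpf, the fast regulatory chain, had the highest signal per kb over its assigned peaks of the 6 genes and no called change at its start. Its broad peak over the start (127208701 to 127211961 on chromosome 7) had 100.2, 119 and 108 CPM in KO and 119.6, 137 and 99.6 CPM in WT, with groups that overlapped. The log2 fold change was -0.12 (95% confidence interval -0.46 to 0.21, adjusted p = 0.811), and it was 0.02 with WT4 left out and 0.06 with the factors of the authors. The peak just past the end of the gene (127214629 to 127215860) had 26.5, 31.0 and 27.8 CPM in KO and 47.6, 42.9 and 38.2 CPM in WT, with no overlap. The log2 fold change was -0.59 (SE 0.18, adjusted p = 0.0236), and the adjusted p was 0.182 with WT3 left out, 0.144 with KO4, 0.12 with KO5 and 0.0966 with KO7. The Mylpf sum was 136 ± 10.2 CPM in KO and 162 ± 18.3 CPM in WT, and did not pass (log2 fold change -0.25, 95% confidence interval -0.49 to -0.01, adjusted p = 0.300). Mylpf lies 252 kb from Prr14 on the same chromosome, and the altered part of Prr14 is not described in the sources used here.

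Myl2, the slow and ventricular regulatory chain, carried the largest called gain among the member peaks. The deposited annotation classes the peak (122092594 to 122093657 on chromosome 5) as intergenic, 7825 bases upstream of a start at 122100951. By RefSeq, whose Myl2 span begins at 122092724, the same peak covers both upstream starts printed above. It had 20.0, 12.8 and 9.25 CPM in KO4, KO5 and KO7 and 5.14, 5.43 and 8.29 CPM in WT3, WT4 and WT8. The groups did not overlap, although KO7 was near WT8 and KO4 stood far above. The log2 fold change was 1.17, or 2.24-fold (SE 0.24, 95% confidence interval 0.70 to 1.63, adjusted p = 7.57e-05). With KO4 left out it was 0.83 (adjusted p = 0.0604), and in the other alternatives it was called. The authors' deposited table also called this peak (log2 fold change 1.37, adjusted p = 0.00191).

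The other Myl2 peaks did not pass. At 15.6 kb upstream KO libraries had 10.9, 7.64 and 7.69 CPM and WT libraries 6.69, 7.91 and 5.92 CPM, a log2 fold change of 0.34 (adjusted p = 0.561). At 11.9 kb upstream the sign was the opposite, with 7.63, 6.74 and 6.50 CPM in KO and 9.36, 8.56 and 8.03 CPM in WT (log2 fold change -0.32, adjusted p = 0.597). No listed peak of Myl2 lay within 3 kb of the deposited start. The Myl2 sum was 39.6, 26.9 and 22.5 CPM in KO and 20.6, 21.9 and 23.2 CPM in WT, with a log2 fold change of 0.44 (95% confidence interval 0.07 to 0.80) that did not pass (adjusted p = 0.209). Of the flanking peaks, the nearest upstream one, assigned to Cux2 (122070688 to 122071947), gave 0.29 (adjusted p = 0.49), and the nearest downstream ones, assigned to Ccdc63, gave 0.49 (adjusted p = 0.541) and 0.04 (adjusted p = 0.966). A weaker Cux2 peak further upstream (122062220 to 122062804) rose, its log2 fold change being 1.01 (SE 0.30, adjusted p = 0.0158).

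Myl3, the essential chain that partners Myl2, showed no called peak. Its 3 peaks had log2 fold changes of -0.11, 0.18 and 0.19, with 95% confidence intervals that together ran from -0.49 to 0.68. The summed signal was 54.3, 60.1 and 64.8 CPM in KO and 59.6, 48.0 and 67.0 CPM in WT, and the groups overlapped. Its log2 fold change was 0.04 (95% confidence interval -0.22 to 0.31, adjusted p = 0.928). None of the 3 peaks touched the RefSeq span of Myl3 (110763678 to 110769802 on chromosome 9), where the deposited annotation has an earlier start at 110741861, so by RefSeq these values describe open chromatin around the gene rather than at it.

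Myl4, the embryonic and atrial essential chain, rose at 1 of 6 peaks. This peak (104571548 to 104572974 on chromosome 11), 21.6 kb inside the gene and 3185 bases from another annotated start, had 14.6, 17.3 and 13.4 CPM in KO and 8.13, 9.75 and 9.74 CPM in WT. Each KO library was above each WT library. The log2 fold change was 0.72 (SE 0.22, adjusted p = 0.0235), which did not pass with WT3 (adjusted p = 0.131), KO4 (0.0679) or KO5 (0.213) left out, nor, at a log2 fold change of 0.93, with the factors of the authors (0.074). The authors' deposited table called it at a log2 fold change of 0.93 (adjusted p = 0.0432). A weak intronic peak at 10.4 kb had 5.65, 4.85 and 5.86 CPM in KO and 2.37, 4.69 and 3.42 CPM in WT, also without overlap, but did not pass (log2 fold change 0.63, adjusted p = 0.283). The other 4 gave -0.21 to 0.13. Among them was the promoter peak of Myl4 (104577235 to 104578818), 27.4 kb inside the gene and 746 bases from an annotated inner start, at 0.03 (adjusted p = 0.974). The deposited gene start of Myl4 (104550663) lies under a peak assigned to Cdc27, which had a log2 fold change of 0.09 (adjusted p = 0.879). The Myl4 sum was 73.6 ± 9.11 CPM in KO and 64.0 ± 11.1 CPM in WT (log2 fold change 0.20, adjusted p = 0.524).

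**Figure D3:**
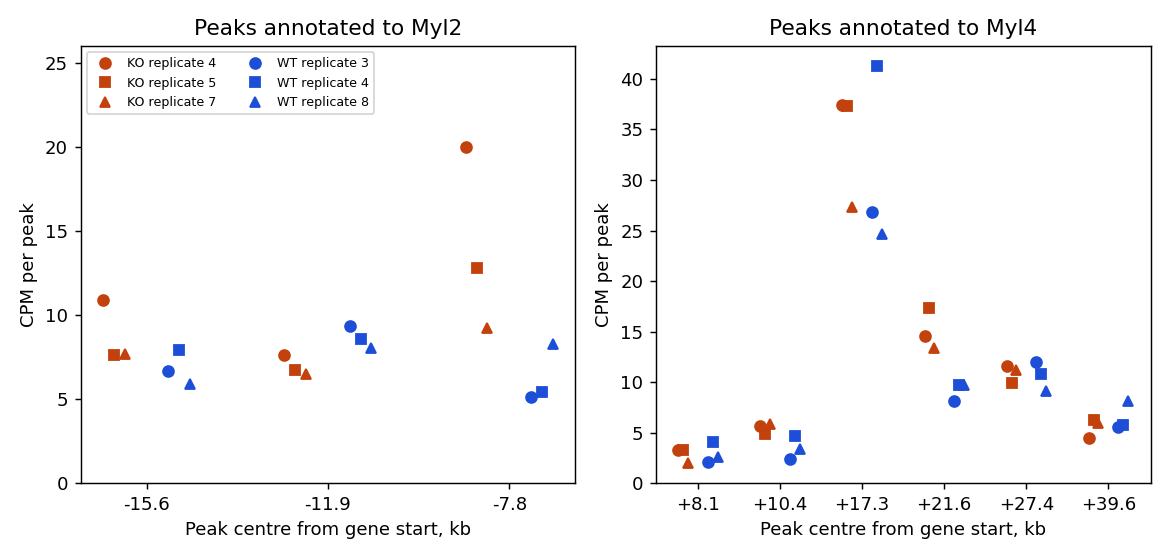
CPM of each library (vertical axis) at the Myl2 and Myl4 peaks, ordered by distance of the peak centre from the deposited gene start in kb (horizontal axis). KO libraries (orange) lie above WT libraries (blue) at the Myl2 peak at -7.8 kb and at the Myl4 peaks at +10.4 and +21.6 kb.

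Myl6b, the slow and non-muscle essential chain, had no called peak. The peak over its start (128498415 to 128499647 on chromosome 10) had 39.9, 41.5 and 37.6 CPM in KO and 36.0, 40.6 and 39.2 CPM in WT. Its log2 fold change was 0.04 (95% confidence interval -0.32 to 0.40), and the upstream peak gave 0.07 (95% confidence interval -0.29 to 0.43).

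**Figure D4:**
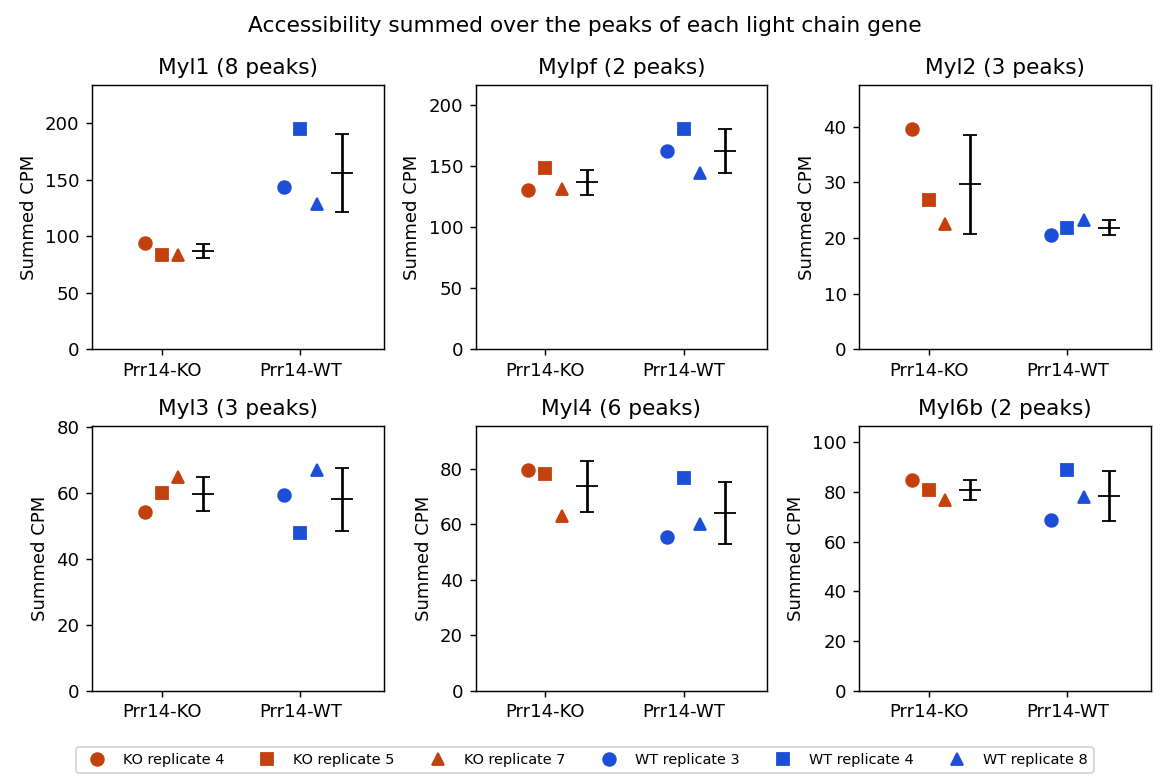
CPM summed over the peaks of each gene (vertical axis, from 0) in the 3 KO and 3 WT libraries; black bars are the mean ± SD. The KO libraries lie below the WT libraries for Myl1 (83.4 to 94.3 against 129 to 195 CPM), and the groups overlap for the other 5 genes.

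Per kb of peak length, the order of the genes in KO was Mylpf (30.4 ± 2.27 CPM per kb), Myl3 (20.6 ± 1.82), Myl6b (20.1 ± 1.02), Myl4 (12.4 ± 1.53), Myl2 (7.61 to 13.4 over the libraries) and Myl1 (7.23 ± 0.509). In WT it was Mylpf (36.1 ± 4.07 CPM per kb), Myl3 (20.1 ± 3.31), Myl6b (19.6 ± 2.49), Myl1 (12.9 ± 2.88), Myl4 (10.8 ± 1.87) and Myl2 (7.40 ± 0.438). Myl3 and Myl6b could not be ranked within their spread in KO or in WT, and neither could Myl4 and Myl2 in KO or Myl1 and Myl4 in WT. Myl1 had a higher level than Myl2 in each WT library and the lowest mean in KO, where its highest library (7.82 CPM per kb) lay above the lowest of Myl2 (7.61). These levels average peaks of unlike class, so the order depends on which peaks were assigned to a gene. In KO the start peaks of Mylpf and Myl6b had 33.4 and 32.2 CPM per kb. Those at the inner and upstream starts of Myl1 had 8.27 and 8.03, above the Myl4 promoter peak (6.89).

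The balance of fast over slow light chain signal, with Myl1 in the fast sum, was lower in KO. The log2 ratio of the summed CPM of Myl1 and Mylpf to that of Myl2 and Myl3 was 1.26, 1.41 and 1.30 in KO and 1.93, 2.42 and 1.6 in WT. Taken singly, Myl1 over Myl2 gave 1.25, 1.63 and 1.90 in KO and 2.81, 3.15 and 2.48 in WT. Myl1 over the embryonic gene Myl4 gave 0.25, 0.09 and 0.41 in KO, against 1.38, 1.35 and 1.10 in WT. Within the fast pair, Myl1 over Mylpf gave -0.47, -0.83 and -0.64 in KO and -0.17, 0.12 and -0.15 in WT. None of these ratios overlapped between the groups. Each has Myl1 in its numerator, however, so they largely repeat the fall of the Myl1 sum and are not separate results. The sums of Mylpf (log2 fold change -0.25, edgeR adjusted p = 0.300), Myl2 and Myl3 were not called. No ratio without Myl1 was taken, and the Myl3 peaks in the slow sum lie outside its RefSeq span. As scores over genes picked with results known they were given no test, so a difference in response between the genes is described and not shown.

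**Figure D5:**
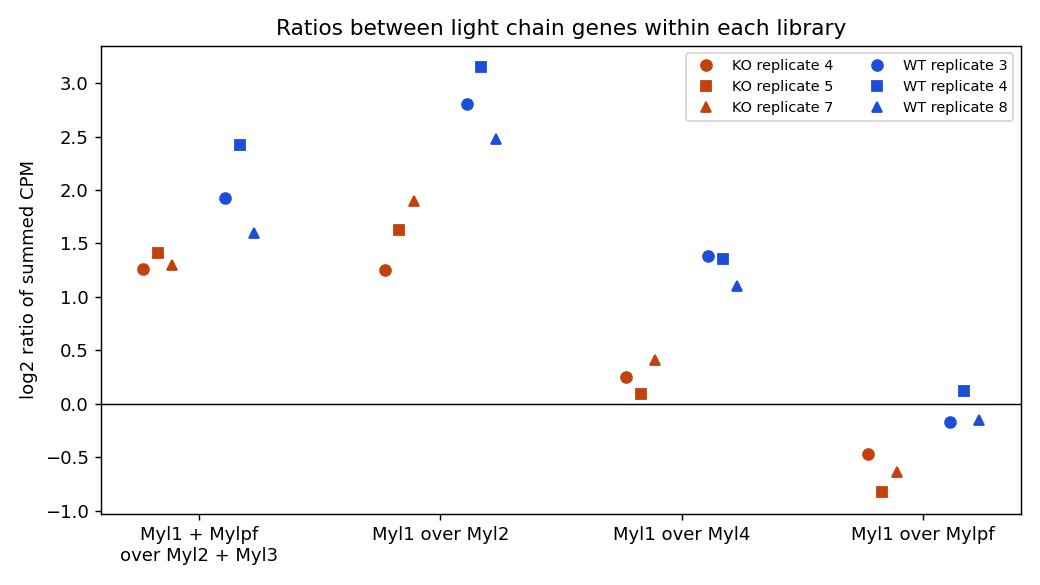
Log2 ratio of summed CPM between light chain genes (vertical axis) in each library, for 4 pairs or groups of genes (horizontal axis). KO libraries (orange) lie below WT libraries (blue) in each ratio, including that of the fast genes Myl1 and Mylpf. Each ratio has Myl1 in its numerator.

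Other sarcomere genes of the same fibre types were read at 1 promoter peak per gene, where the median log2 fold change over all genes was 0.06. Of all 12868 tested promoter peaks, 0.692% fell and 0.894% rose. Of 13 fast partners 12 had a promoter peak, with a median of -0.13, and 1 fell, 0 rose and 11 did not pass. The one that fell was Myh4, the IIb heavy chain gene, with 37.7, 41.8 and 33.2 CPM in KO and 75.4, 105 and 57.4 CPM in WT (log2 fold change -1.08, SE 0.18, adjusted p = 3.95e-07). Mylk4, a light chain kinase family gene, gave -0.55 (adjusted p = 0.0509), and Myh1, the IIx heavy chain gene, -1.23 (adjusted p = 0.13). The summed promoter signal of the fast partners was 1233 to 1322 CPM in KO and 1101 to 1767 CPM in WT.

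Over all their peaks, 32 of 78 fast partner peaks fell and 1 rose (median -0.56), beside the 4.23% of all tested peaks that fell. Among 11 slow partners, 0 promoter peaks fell, 1 rose and 10 did not pass (median 0.12), beside the 0.894% of all promoter peaks that rose. The one that rose was Tnnc1, troponin C of slow and cardiac muscle, with 10.1, 7.32 and 3.94 CPM in KO and 3.40, 3.22 and 3.03 CPM in WT (log2 fold change 1.14, SE 0.30, adjusted p = 0.00464). Pln, the phospholamban gene, gave -0.81 (adjusted p = 0.137), and Myh7, the slow heavy chain gene, 0.78 (adjusted p = 0.286). Over all peaks of the slow partners, 16 of 60 fell and 2 rose (median -0.31). Of 5 embryonic and perinatal partners 4 had a promoter peak, of which 0 passed, with Actc1, the cardiac actin gene that embryonic muscle also uses, at 0.41 (adjusted p = 0.231). Over all peaks of the embryonic and perinatal list, 5 of 18 fell and 1 rose (median 0.02). Among 7 other light chain genes 4 had a promoter peak, of which 0 passed, with Myl12b at 0.25, Myl12a at -0.07 and Myl6 at 0.04.

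Promoter peaks whose pattern over the 6 libraries was most like that of Myl1 (its inner start) were those of Pfn2, Ctsc and Cuzd1 (Pearson r of log2 CPM 0.988, 0.988 and 0.986 among 11250 promoters). For Mylpf they were those of Sumf2, Pif1 and Shisa2 (0.999, 0.991 and 0.990). For Myl4 (its inner start) they were those of Cebpb, Wdr35 and Wdr6 (0.991, 0.985 and 0.985), and for Myl6b those of Ttc9, Furin and Ighmbp2 (0.993, 0.983 and 0.982). Myl2 and Myl3 had no promoter peak to compare. These values describe the 6 libraries whose depth and scaling all promoters share. Each is picked as the highest among 11250 promoters over 6 libraries. They were similarly high for the uncalled Mylpf and Myl6b, so no shared regulation is read from them.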

How the data were processed

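ATAC-seq libraries of quadriceps femoris (3 Prr14-KO, 3 Prr14-WT) were compared. Build GRCm38 and the tools BWA, MACS2, Trimmomatic, bedtools, deepTools and DESeq2 1.6.3 are listed, without roles, per the submitters' processing notes. The authors deposited whole-number counts per peak, with a normalized signal by the authors that equals the count over 1 factor per library, a score per peak, their log2 fold changes and their p-values. The sources used here do not give the counting, read shift or duplicate handling.

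Counts were fitted with edgeR 4.0.16 in R 4.3.3 (glmQLFit, glmQLFTest, two-sided, TMM, filterByExpr with minimum count 10 and total 15; checked on simulated data) over all peaks, and again over counts summed per gene name (15916 tested), with Benjamini-Hochberg adjustment over each table. SE is the log2 fold change over the square root of F. Adjusted p-values are of edgeR unless another source is named. The promoter peak is the annotated peak nearest a start site within 3 kb, measured from the peak centre. Named were all member peaks, and of each partner list at most 3 genes, those of smallest p. Cldn5 and the neighbouring genes were named after their values were seen. Like patterns used log2(CPM + 0.5) of promoters of at least 5 CPM. Levels per kb use the end minus the start of each peak. Depth was 7608514 to 12061822 counts in peaks per library. Members and lists were chosen with earlier results of these data known. Alternatives were other scalings, DESeq2 1.42.0, no filter, each library left out, and peaks over RefSeq spans (GRCm38.p6) only.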

Additional observations from a re-analysis of the deposited data

How the results depend on the processing

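Median-ratio factors, total counts and no filter on low counts left 7 to 8 member peaks lower and 2 higher. Over all peaks these settings gave 2671 to 2945 lower and 2205 to 2493 higher. DESeq2 called 5 lower and 2 higher, beside 2316 and 1797 of all peaks. The factors of the authors gave 1 lower and 1 higher, 0 gene sums of members lower, and 752 of all peaks lower and 1620 higher. Of the 11 member peaks over RefSeq spans, 3 were lower and 2 higher, beside 4.23% and 2.77% of all tested peaks. The other called losses lay outside the RefSeq spans of the members. With each library left out in turn, member peaks called lower ran from 4 to 8 and higher from 0 to 2. Over all peaks the counts ran from 1409 to 3111 lower and from 959 to 2248 higher. The Myl1 gene sum stayed lower in each of these fits, between -0.95 and -0.65 over all alternatives.

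Uncalled values near 0 changed sign. With the factors of the authors the Mylpf start peak gave 0.06, the first Myl3 peak 0.12, the Myl4 peaks at 8.1 and 39.6 kb 0.14 and 0.03. Relative to the median of all peaks under those factors (0.19), the same peaks gave -0.13, -0.07, -0.06 and -0.16, which are negative as with TMM. With total counts the Myl4 peak at 8.1 kb gave 0.01. Without WT replicate 4 the Mylpf start peak gave 0.02, the Myl4 peak at 8.1 kb 0.31 and the Myl3 sum -0.09. Without WT replicate 8 the first Myl3 peak gave 0.02, the Myl4 peak at 27.4 kb -0.02 and that at 39.6 kb 0.02. Without KO replicate 4 the first Myl3 peak gave 0.01 and the Myl4 peak at 27.4 kb -0.01. Without KO replicate 7 the Myl4 peak at 8.1 kb gave 0.18 and the Myl3 sum -0.02, and without WT replicate 3 the Myl6b sum was -0.05. Over the fits that each left out a library, these values ran from -0.18 to 0.02 at the Mylpf start peak, -0.16 to 0.02 at the first Myl3 peak, -0.23 to 0.31, -0.02 to 0.15 and -0.29 to 0.02 at the Myl4 peaks at 8.1, 27.4 and 39.6 kb, and -0.09 to 0.16 for the Myl3 sum. The causes were not tested. With a promoter window of 1 kb Mylpf had no promoter peak. No paired analysis was possible because the groups share only replicate number 4. Low counts limit the weak peaks, such as that of Myl4 at 8.1 kb, with 22 to 40 counts in KO and 20 to 44 in WT.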
